A study of Mus musculus with 8 samples.

Results

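The TRIM (tripartite motif) genes of mouse testis were described across 8 arrays of Ctcfl mutant and wildtype animals. The members were all probe sets of the deposited table whose gene symbol is Trim followed directly by a number, whatever their level. This took 105 probe sets of 52 genes, out of 45101 probe sets and 22666 gene symbols in the table. A probe set is a group of short oligonucleotides that reads 1 transcript or several close ones, and 24 of the TRIM genes had 1 probe set while 28 had between 2 and 6. At 9 probe sets the table gives a further symbol beside the TRIM gene, so their level may not be of the TRIM transcript alone.

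TRIM proteins carry, from their N-terminus, a RING finger, 1 or more B-boxes and a coiled coil, and most act as E3 ubiquitin ligases, which attach ubiquitin to chosen target proteins. The C-terminal domain sets much of what a member does: a PHD finger with a bromodomain reads chromatin, a COS box binds microtubules, and a PRY-SPRY domain often recognises other proteins, among them viral capsids. Several members are known from the testis, and many others from the response to interferon.

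The 8 samples were whole testes at postnatal day 23 on a C57/Bl6 background, each hybridised to 1 Affymetrix Mouse430_2 array. Replicates 1, 2, 4, 6 and 7 are labelled wildtype, though by the study's account the controls were Ctcfl del/+ littermates, and replicates 3, 5 and 8 are the Ctcfl mutant (Ctcfl del/del, with exons 1 to 8 deleted). CTCFL is the germ cell paralog of CTCF, and the comparison asks which testis transcripts differ when it is missing. Ctcfl itself was not analysed here, so no value of the targeted gene stands behind the labels. The labels do not say whether each sample was 1 animal, so the p-values measure only the spread between these samples. Values are log2 levels, in which a difference of 1 is a doubling. In bulk tissue, fewer cells of a type and less RNA per cell cannot be told apart.

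Wildtype replicate 7 and mutant replicate 8 differed from the other 6 arrays in transcripts of late germ cells. All 18 probe sets of 11 spermatid markers were highest on these arrays, with a mean marker level of 10.5 and 9.97 against 7.96 to 8.71 on the others. Markers of fat cells moved with them in 9 of 10 probe sets, with a mean level of 6.81 and 6.75 against 5.31 to 5.88. The labels give no reason to join these arrays, so the differences below are also given without both, within the pair (mutant replicate 8 minus wildtype replicate 7) and with the pair as a block in the fit. Of the other markers, those of Leydig cells had a mean level of 7.74 to 7.97 in the wildtype and 7.84 to 8.27 in the mutant, and those of Sertoli cells 8.94 to 8.98 and 8.91 to 9.16.

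Most of the TRIM family had nearly the same level in both groups. None of the 105 probe sets passed an adjusted p of 0.05 with limma, where 0.00% of all probe sets did. The unadjusted p was under 0.05 for 7 TRIM probe sets (6.67%), against 3.47% of all probe sets. Of these 7, 5 were higher in the mutant (4.76%, background 1.76%) and 2 were lower (1.90%, background 1.70%). The groups did not overlap at 6 TRIM probe sets (5.71%), against 2.70% of all, with 4 higher (3.81%, background 1.38%) and 2 lower (1.90%, background 1.31%). Whether the TRIM shares differ from the background was not tested. Over the 105 probe sets the median difference, mutant minus wildtype, was 0.01, beside 0.00 over all probe sets, and 66 were higher in the mutant (62.9%, background 51.5%) and 39 lower. The absolute difference was under 0.2 in 96 of 105, and the median standard error was 0.09. How many of all probe sets lay under 0.2 was not counted, so this count does not set the TRIM genes apart. The median span from lowest to highest array was 0.36 for the TRIM probe sets and 0.38 for all probe sets.

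**Figure D1:**
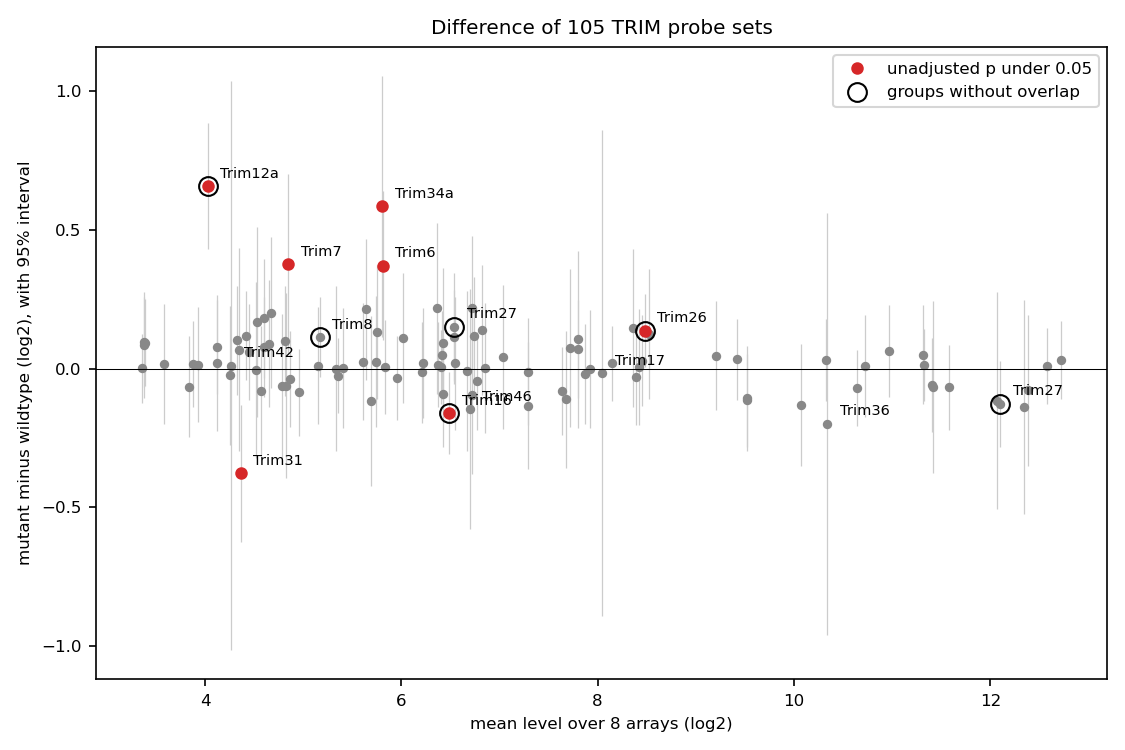
Difference between the groups (log2, mutant minus wildtype, with its 95% interval from limma) against the mean level over 8 arrays (log2) for each of the 105 TRIM probe sets. Red points had an unadjusted p under 0.05 and ringed points had groups without overlap; Trim12a and Trim34a lie above 0.5 and Trim31 has the lowest difference, while the long intervals belong to Trim17, Trim36 and Trim42.

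The 2 largest differences were in genes of 1 cluster on chromosome 7, where Trim6, Trim34a, Trim5, Trim12a, Trim34b, Trim12c, Trim30b, Trim30c, Trim30a and Trim30d follow each other in the RefSeq gene order. These are the rodent relatives of primate TRIM5, TRIM6, TRIM22 and TRIM34, which include restriction factors that act against retroviruses, and Trim30a is known to dampen signalling from Toll-like receptors. Trim34b and Trim30c had no probe set.

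Trim12a, a rodent relative of TRIM5, gave the lowest unadjusted p of the family and ranked 2 of all 45101 probe sets. On probe set 1437432_a_at its levels were 3.61, 4.02, 3.93, 3.69 and 3.66 in wildtype replicates 1, 2, 4, 6 and 7, and 4.46, 4.48 and 4.38 in mutant replicates 3, 5 and 8. All 3 mutant arrays lay above all 5 wildtype arrays, and the mutant values lay within 0.10 of each other. The difference was 0.66 (SE 0.10, 95% interval 0.43 to 0.89), a 1.58-fold higher level, with an unadjusted limma p of 8.06e-05 and an adjusted p near 1. The exact permutation p was 0.0357, two-sided, the smallest that 5 against 3 arrays can give. Every probe set without overlap between the groups gets this value, here and below, so it only restates the lack of overlap. Without the departing pair the difference was 0.66, and within the pair it was 0.72. This probe set is dim, under the array median of about 6.4, and with 50 added on the linear scale the difference shrank to 0.17. The same offset left 0.31 for Trim34a, 0.20 for Trim6, 0.15 for Trim7 and -0.11 for Trim31, whose probe sets, described further on, also have mean levels under the array median. The 2 further probe sets of Trim12a did not show it: 1420648_at, which carries such a further symbol, differed by 0.12 (SE 0.07, exact permutation p = 0.107), and 1446939_at by -0.00 (SE 0.14).

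Trim34a, a relative of the interferon-induced TRIM34, was 1.50-fold higher in the mutant on 1424857_a_at. Its levels were 5.26, 6.28, 5.49, 5.47 and 5.42 in the wildtype and 5.97, 6.44 and 6.10 in the mutant. Wildtype replicate 2 lay inside the mutant range, and the other 4 wildtype arrays lay below it. The difference was 0.59 (SE 0.21, unadjusted limma p = 0.0200, exact permutation p = 0.107), and it was 0.58 without the pair and 0.68 within it. The 3 other probe sets of Trim34a differed by 0.02 to 0.13, each with an unadjusted limma p over 0.24.

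Trim6, whose protein builds unanchored ubiquitin chains in the interferon response, had levels of 5.38, 5.90, 5.63, 5.77 and 5.67 in the wildtype and 5.87, 6.06 and 6.20 in the mutant on 1424448_at. Again wildtype replicate 2 was the only wildtype array that reached the mutant values. The difference was 0.37 (SE 0.12, unadjusted limma p = 0.0117, exact permutation p = 0.0714), with 0.29 without the pair and 0.53 within it. Its second probe set, 1453624_at, differed by 0.01 (SE 0.09).

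Trim30a had 3 probe sets, one of them shared with a neighbour now named Trim30d. On 1417961_a_at the levels were 5.72, 5.71, 5.29, 5.64 and 5.45 in the wildtype and 5.87, 5.85 and 5.61 in the mutant. The groups overlapped, with a difference of 0.21 (SE 0.11, exact permutation p = 0.143), and with the pair as a block it was 0.24 and passed the unadjusted threshold of 0.05. The others differed by 0.17 (1456494_a_at, the shared one) and -0.04 (1451860_a_at).

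Further probe sets of the cluster carry older symbols in the table and are no members by the rule, but their Entrez IDs now name Trim5, Trim12c, Trim30b and Trim30d. Trim12c differed by 0.17 and Trim30b by -0.12, each with an unadjusted limma p over 0.14. Trim5 differed by 0.13 on 1442693_at and -0.10 on 1443858_at, which it shares with Trim12c. Trim30d differed by 0.09 on 1435665_at, and by -0.12 on 1438716_at, where the mutant levels of 4.39, 4.43 and 4.40 lay just below the lowest wildtype level of 4.46. With members and these together, 18 probe sets of 8 genes were measured in the cluster. Of these 13 were higher in the mutant, with a median difference of 0.11, where 51.5% of all probe sets were higher. The unadjusted p was under 0.05 at 3 of the 18, all higher, against 1.76% of all probe sets, and whether these shares differ was not tested.

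The 10 genes on each side that have a probe set were taken as flanks, a choice made after the values of the cluster were seen. They were olfactory receptors, embryonic globins and ubiquilins on the Trim6 side, and a mix of genes on the Trim30d side. None of their 31 probe sets had an unadjusted limma p under 0.05 or groups without overlap, against 3.47% and 2.70% of all probe sets. At these shares few of 31 would pass. In the cluster 2 of 18 probe sets were without overlap, 1 higher and 1 lower in the mutant. Of the 31, 15 were higher in the mutant, and the median difference was -0.00. Whether cluster and flanks differ was not tested. Wildtype replicate 2 was the highest wildtype array at 7 of 18 cluster probe sets and at 2 of 31 flanking ones. The 7 include 1446939_at of Trim12a, which did not differ between the groups. Some of the 7 are probe sets of the same gene, such as both of Trim6, so they are not separate genes. The same share over all probe sets was not counted, and whether these counts differ from it was not tested.

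**Figure D2:**
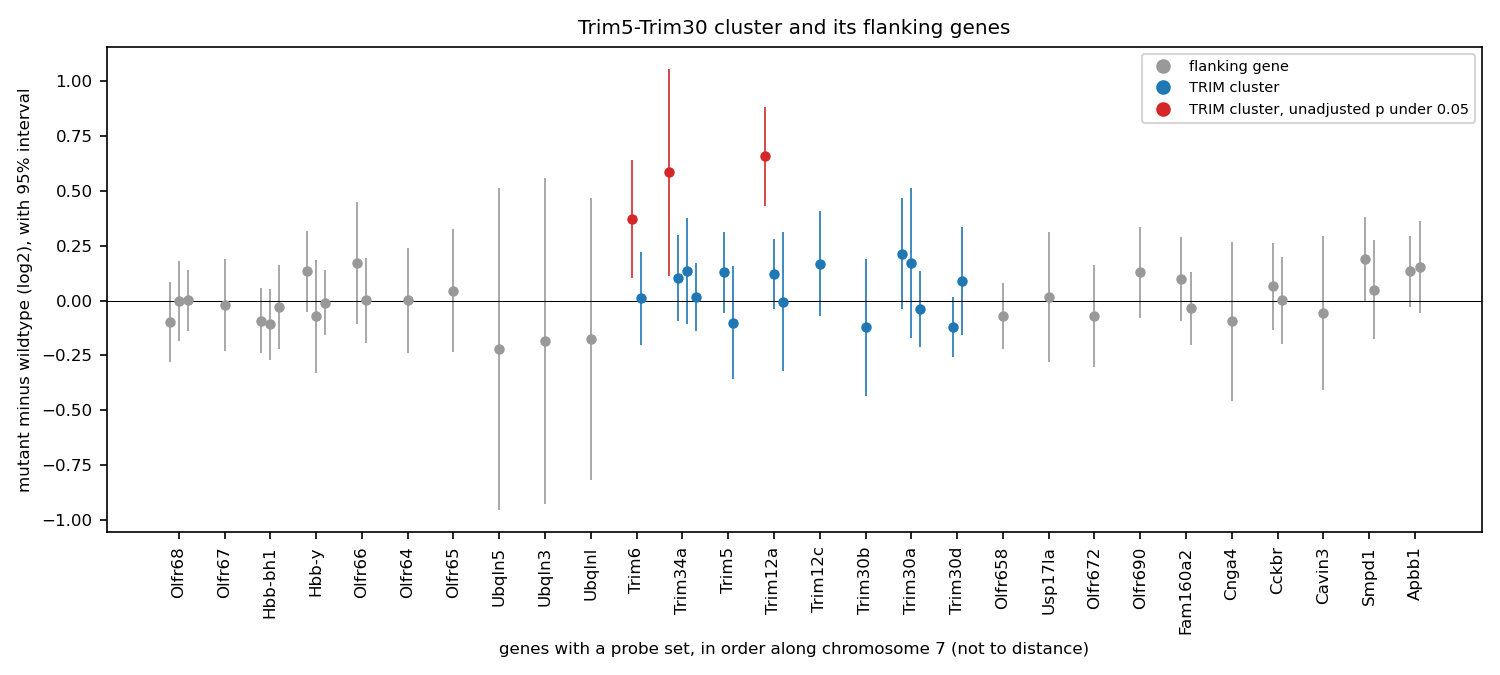
Difference between the groups (log2, mutant minus wildtype, with its 95% interval from limma) for each probe set of the Trim5-Trim30 cluster and of 10 flanking genes on each side, in gene order along chromosome 7. The 3 red points, 1 each of Trim6, Trim34a and Trim12a, lie between 0.37 and 0.66, and other probe sets of the same genes lie near 0.

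The promoters of the cluster are shown because 3 of the 7 probe sets with an unadjusted p under 0.05 fall in neighbouring genes with known links to interferon, and because copies of 1 gene can share regulatory letters. The windows are RefSeq promoters (GRCm38.p6) from 250 bases before the annotated start to 30 after it, written 5′ to 3′ along the gene. Capitals mark the core of an interferon response element, 2 copies of GAAA with any 2 bases between them, searched on both strands in the full windows of 300 bases. On the opposite strand it reads as 2 copies of TTTC with the same spacing.
Trim12a promoter, chr7:104315466-104315745, minus strand: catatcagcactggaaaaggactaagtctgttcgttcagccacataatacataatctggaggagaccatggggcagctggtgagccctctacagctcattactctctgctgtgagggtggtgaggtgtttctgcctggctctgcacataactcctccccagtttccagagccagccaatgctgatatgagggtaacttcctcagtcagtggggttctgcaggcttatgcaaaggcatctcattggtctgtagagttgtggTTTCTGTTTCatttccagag
Trim34a promoter, chr7:104244207-104244486, plus strand: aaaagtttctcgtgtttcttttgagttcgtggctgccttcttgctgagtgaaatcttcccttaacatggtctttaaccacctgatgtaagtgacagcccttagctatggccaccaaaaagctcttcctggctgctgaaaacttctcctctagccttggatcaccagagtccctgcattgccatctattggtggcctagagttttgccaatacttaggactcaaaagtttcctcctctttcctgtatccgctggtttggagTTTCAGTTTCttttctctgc
Trim6 promoter, chr7:104218545-104218824, plus strand: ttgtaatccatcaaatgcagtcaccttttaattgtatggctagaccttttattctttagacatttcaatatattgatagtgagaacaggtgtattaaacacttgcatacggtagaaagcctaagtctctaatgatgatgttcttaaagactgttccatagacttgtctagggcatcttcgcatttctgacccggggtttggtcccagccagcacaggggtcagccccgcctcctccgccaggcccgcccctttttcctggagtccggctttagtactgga

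In both Trim12a and Trim34a the match began at base 11 after the annotated start, and the Trim6 window held none. The same core stood in 7 of the 11 promoter windows of the cluster, which belong to 6 of its 10 genes, and in 7 of 55 windows of the member genes, against 1131 of 32851 promoters (3.44%). These counts overlap, since the windows of Trim12a, Trim34a and Trim30a stand in both. The 55 windows cover 41 of the 52 member genes, and the others had no window to search. The other annotated starts of Trim2 had no match. Whether either share differs from that of all promoters was not tested. For the other cluster genes, and for Trim21, Trim26 and Trim2 outside it, stretches of 30 bases around the match are given to show how close the copies are.
Trim5, chr7:104288136-104288165, minus strand: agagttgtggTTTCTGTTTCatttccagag
Trim12c, chr7:104353359-104353388, minus strand: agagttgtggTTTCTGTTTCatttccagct
Trim30a (first start), chr7:104465210-104465239, minus strand: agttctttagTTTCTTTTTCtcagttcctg
Trim30a (second start), chr7:104446104-104446133, minus strand: ttgtttttagTTTCTTTTTCtcagttcctg
Trim30d, chr7:104507871-104507900, minus strand: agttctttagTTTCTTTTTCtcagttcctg
Trim21, chr7:102565450-102565479, minus strand: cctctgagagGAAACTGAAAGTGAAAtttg
Trim26, chr17:36836976-36837005, plus strand: ccgcttccgaTTTCACTTTCCTTTTCtcgg
Trim2, chr3:84212791-84212820, minus strand: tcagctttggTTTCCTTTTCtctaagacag

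The stretch of Trim5 is letter for letter that of Trim12a, and the stretch of Trim30d that of the first Trim30a start. Copies this close may share oligonucleotides on the array, and which paralog each probe set reads was not tested. Trim34b, Trim30b and Trim30c, like Trim6, had no match in their windows. The matches are descriptions of these letters only.

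Of 48 probe sets of 30 interferon-stimulated genes, 1 had an unadjusted limma p under 0.05, a share near the 3.47% of all probe sets. Their differences ran from -0.27 to 0.36, with a median of 0.02. That probe set, 1446457_at of Ddx58, which encodes the RNA sensor RIG-I, was higher by 0.25 (SE 0.11). None of the 15 macrophage and 12 lymphocyte marker probe sets had an unadjusted limma p under 0.05. Their mean levels on the mutant arrays were 7.33 to 7.70 for macrophages, with 7.37 to 7.62 in the wildtype, and 5.24 to 5.30 for lymphocytes, with 5.25 to 5.39 in the wildtype.

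Other antiviral TRIMs outside the cluster had small differences. Trim26, an E3 ligase with reported roles in the interferon pathway, had levels of 8.44, 8.39, 8.46, 8.45 and 8.41 in the wildtype and 8.59, 8.58 and 8.52 in the mutant on 1424929_a_at. The groups did not overlap, and the difference was 0.14 (SE 0.06, unadjusted limma p = 0.0401, exact permutation p = 0.0357). Its second probe set, 1421600_a_at, differed in the same direction by 0.11 (SE 0.08). Trim21, the cytosolic antibody receptor, differed by 0.05 and -0.04, and Trim25, which ubiquitinates RIG-I, by 0.15, 0.11 and 0.01 over its 3 probe sets. Trim14 differed by 0.08 and -0.03, and Trim65 by 0.03. Trim38 and Trim56 had no probe set.

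Trim31 was the only TRIM probe set that was lower in the mutant by more than 0.2. Trim31, an E3 ligase known from the gut and from inflammasome control, lies beside Trim40, Trim10, Trim15 and Trim26 on chromosome 17. On 1425308_at its levels were 4.60, 4.34, 4.54, 4.57 and 4.48 in the wildtype and 3.88, 4.13 and 4.38 in the mutant. Mutant replicate 8 lay just above wildtype replicate 2, the lowest of its group, and the other mutant arrays lay below all 5. The difference was -0.38 (SE 0.11, unadjusted limma p = 0.00697, exact permutation p = 0.0714). It was -0.51 without the pair and -0.10 within it, so most of it rested on mutant replicates 3 and 5. The neighbours Trim40, Trim10 and Trim15 differed by 0.11, 0.00 and -0.08, with groups that overlapped, while Trim26 was higher in the mutant on 1424929_a_at, as given above.

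The remaining probe sets with an unadjusted p under 0.05 belonged to Trim7 and Trim16. Trim7, which was found as a partner of glycogenin, had levels of 4.92, 4.61, 4.84, 4.65 and 4.51 in the wildtype and 4.86, 5.46 and 4.92 in the mutant on 1425743_at. The difference of 0.38 (SE 0.15, unadjusted limma p = 0.0266, exact permutation p = 0.0714) was carried by mutant replicate 5, and without it the difference was 0.19. Its 2 further probe sets each differed by 0.07. Trim16, which lacks a RING finger, shares both its probe sets with Fbxw10, an F-box gene. On 1452362_at the wildtype levels were 6.67, 6.50, 6.55, 6.53 and 6.50 and the mutant levels 6.44, 6.33 and 6.39, without overlap (difference -0.16, SE 0.07, unadjusted limma p = 0.0362, exact permutation p = 0.0357). The second, 1460629_at, differed by -0.07 (SE 0.08).

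**Figure D3:**
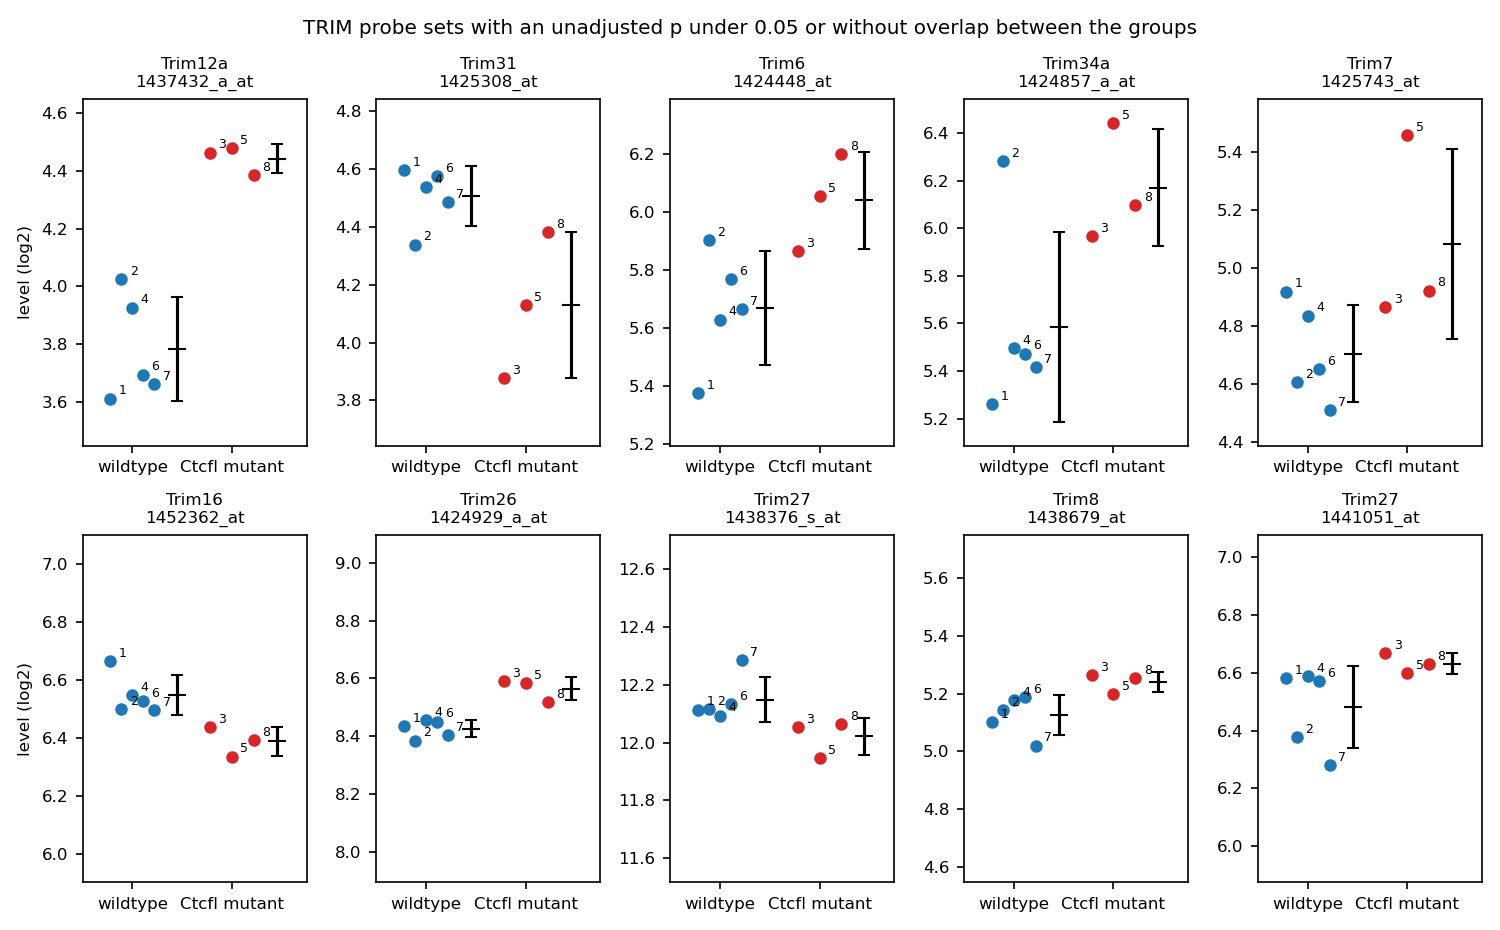
Levels (log2) on each array for the 10 TRIM probe sets with an unadjusted p under 0.05 or with groups without overlap; blue points are wildtype and red points Ctcfl mutant arrays, numbered by replicate, and the black bars are the mean and SD of each group. Trim12a parts the groups by the widest gap, wildtype replicate 2 reaches the mutant levels of Trim34a and Trim6, and the 2 Trim27 probe sets go in opposite directions.

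Among the TRIMs known from germ cells, none had an unadjusted p under 0.05 without the block, and the differences over 17 probe sets of 9 genes ran from -0.20 to 0.22. Markers of spermatocytes were lower at an unadjusted limma p under 0.05 in 2 of 10 probe sets, those of the synaptonemal complex gene Sycp1 (-0.25) and of Hormad1 (-0.19), and those of spermatogonia were higher in 2 of 17 and lower in 1. Leydig cell markers were higher in 2 of 13 probe sets, with a median difference of 0.15, and Sertoli cell markers in 1 of 16, with a median of 0.09. Over all probe sets 1.76% were higher and 1.70% lower at this threshold, and the part of these markers in the TRIM levels was not tested. Trim27, the RET finger protein of spermatogenic cells, parted the groups in opposite directions on 2 probe sets. On 1438376_s_at its levels were 12.11, 12.12, 12.09, 12.13 and 12.29 in the wildtype and 12.05, 11.95 and 12.06 in the mutant, a difference of -0.13 (SE 0.07). On 1441051_at they were 6.58, 6.38, 6.59, 6.57 and 6.28 against 6.67, 6.60 and 6.63, a difference of 0.15 (SE 0.09). Both had an unadjusted limma p over 0.09, and their exact permutation p of 0.0357 only restates the lack of overlap. The other 3 probe sets of Trim27 overlapped and differed by -0.07 to 0.02, so no common direction was seen for the gene.

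Trim17, Trim36 and Trim42 had the widest spans over the 8 arrays among the 105 member probe sets, and their high arrays were wildtype replicate 7 and mutant replicate 8. Trim17 is an E3 ligase known from testis and neurons, Trim36 (haprin) takes part in the acrosome reaction of sperm, and Trim42 has a COS box and is mostly known as a testis transcript. Trim17, on a probe set shared with the histone gene Hist3h2a (1427507_at), had levels of 7.55, 7.75, 7.85, 8.01 and 9.12 in the wildtype and 7.53, 7.64 and 8.94 in the mutant. Wildtype replicate 7 was 1.33 above the mean of the other wildtype arrays, and mutant replicate 8 was 1.36 above the other mutants. Trim42 (1430432_at) had 3.45, 4.0, 4.16, 4.18 and 5.52 in the wildtype and 3.83, 3.72 and 5.27 in the mutant, with departures of 1.57 and 1.49. Trim36 (1455837_at) had 10.01, 10.22, 10.30, 10.21 and 11.33 in the wildtype and 9.55, 10.14 and 10.95 in the mutant, with departures of 1.14 and 1.10. In all 3, the departure was larger than any spread among the other 6 arrays. The differences between the groups were -0.02 (SE 0.39) for Trim17, 0.01 (SE 0.46) for Trim42 and -0.20 (SE 0.34) for Trim36. Without the pair they were -0.20, -0.17 and -0.34, and within it -0.18, -0.25 and -0.38. With the pair as a block Trim36 differed by -0.35 on 1455837_at and passed the unadjusted threshold of 0.05. The second probe set of Trim36, 1441969_at, was not high on both arrays. It departed by -0.27 on wildtype replicate 7 and by 0.06 on mutant replicate 8, and its difference between the groups was 0.02.

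Trim46 and Trim66 followed mainly on the mutant side. Trim46, a COS-box protein that bundles microtubules in axons, had levels of 6.55, 6.63, 6.82, 6.88 and 6.89 in the wildtype and 6.11, 6.57 and 7.15 in the mutant (1460568_at). Trim66, a chromatin reader of spermatids, had 4.79, 4.79, 4.88, 4.80 and 4.95 in the wildtype and 4.49, 4.62 and 5.25 in the mutant (1456967_at). Mutant replicate 8 was 0.81 and 0.70 above the other mutants, while wildtype replicate 7 was 0.17 and 0.13 above the other wildtype arrays. Low levels in the other mutants widen the mutant departures. Mutant replicate 3 for Trim46, and mutant replicates 3 and 5 for Trim66, lay below all wildtype arrays. Mutant replicate 8 lay 0.26 and 0.30 above wildtype replicate 7. The differences between the groups were -0.15 (SE 0.19) and -0.06 (SE 0.15). Trim80, named as a TRIM gene only through its Entrez ID and so no member by the rule, spanned 2.42. It was likewise highest on both arrays, at 8.72 and 8.58 against 6.30 to 7.06.

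**Figure D4:**
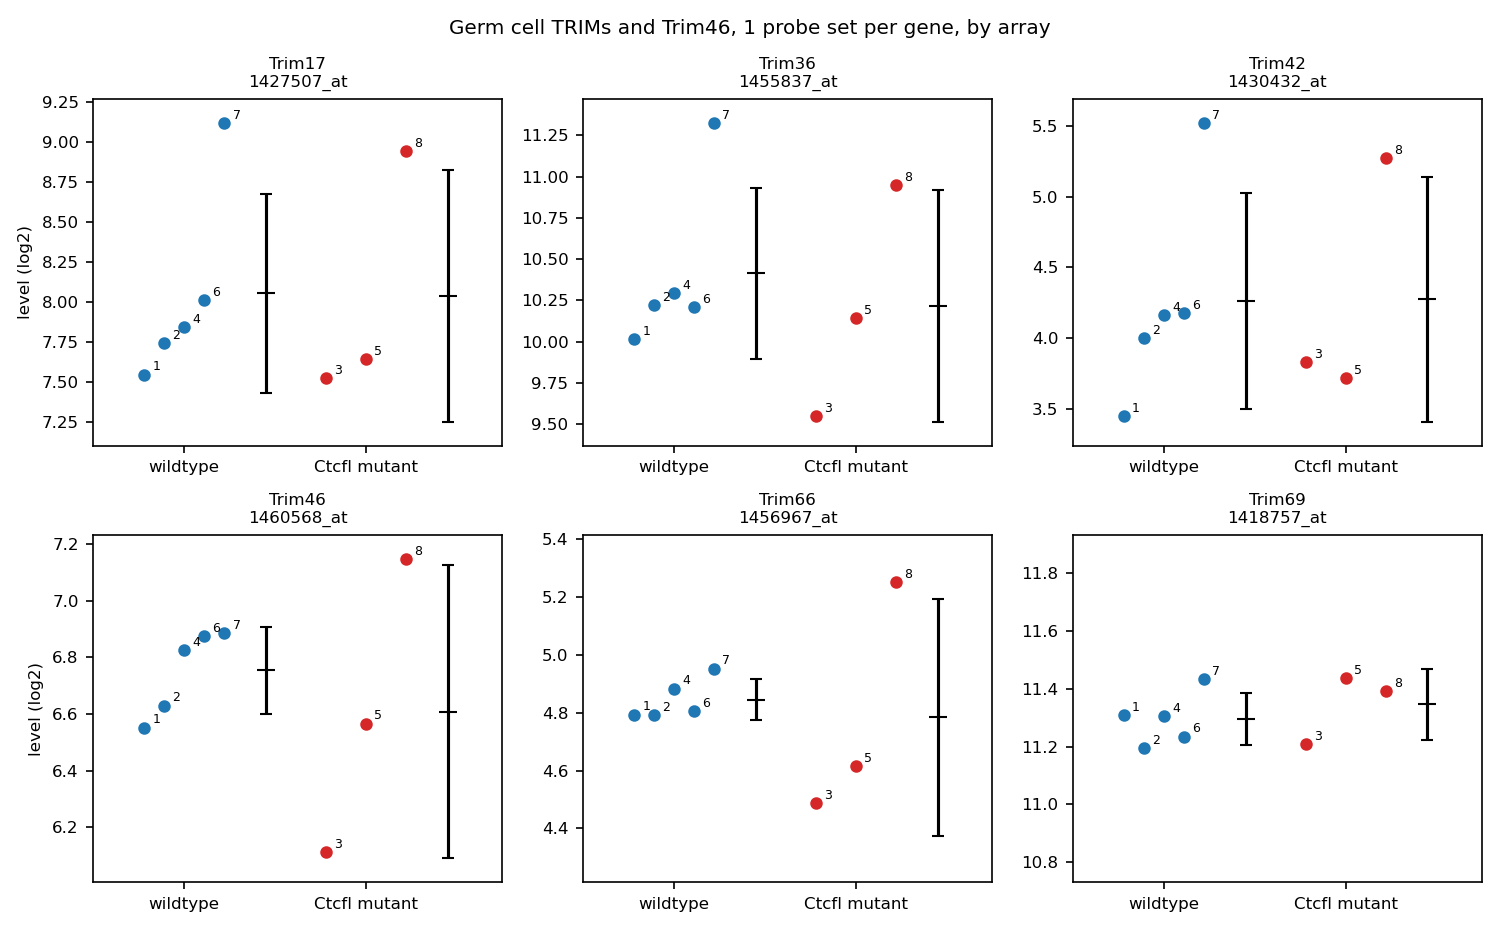
Levels (log2) on each array of 5 germ cell TRIMs and of Trim46, with the most variable probe set of each gene; blue points are wildtype and red points Ctcfl mutant arrays, numbered by replicate, and the black bars are the mean and SD of each group. Replicates 7 and 8 are the high arrays of Trim17, Trim36, Trim42, Trim46 and Trim66, while Trim69 stays between 11.19 and 11.44.

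In all, 5 of 105 TRIM probe sets (4.76%) spanned more than 1 over the 8 levels, against 3.49% of all probe sets: those of Trim17, Trim36, Trim42, Trim46 and Trim34a. Wildtype replicate 7 and mutant replicate 8 were the 2 highest arrays at 14 TRIM probe sets (13.3%), against 8.60% of all, and the 2 lowest at 12 (11.4%), against 10.3%. Both shares are counts over probe sets that share the same arrays, and whether they differ from the background was not tested. The part of the spermatid and fat transcripts of these arrays in the TRIM levels was not tested either.

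On the low side stood Trim37, a peroxisomal and centrosomal E3 ligase that is abundant in testis. On 1436394_at its levels were 12.08, 12.03, 12.40, 12.36 and 11.69 in the wildtype and 12.01, 12.29 and 11.69 in the mutant. Replicates 7 and 8 were the lowest arrays there and at 3 more of its 5 probe sets, with departures of -0.27 to -0.53 from their groups. Between the groups the 5 probe sets differed by -0.07 to -0.14, each with an unadjusted limma p over 0.34. Trim63 (MuRF1), an E3 ligase of muscle wasting, was also low on both arrays and had 6.37, 6.24, 6.54, 6.31 and 5.98 in the wildtype and 6.58, 6.71 and 6.22 in the mutant on 1438704_at. Its difference was 0.22 (SE 0.14, exact permutation p = 0.250), and 0.27 with the pair as a block. With this block, 11 TRIM probe sets (10.5%) had an unadjusted p under 0.05, against 5.86% of all, and they held the 7 already given, with Trim30a, Trim36, Trim63 and Trim71 added.

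**Figure D5:**
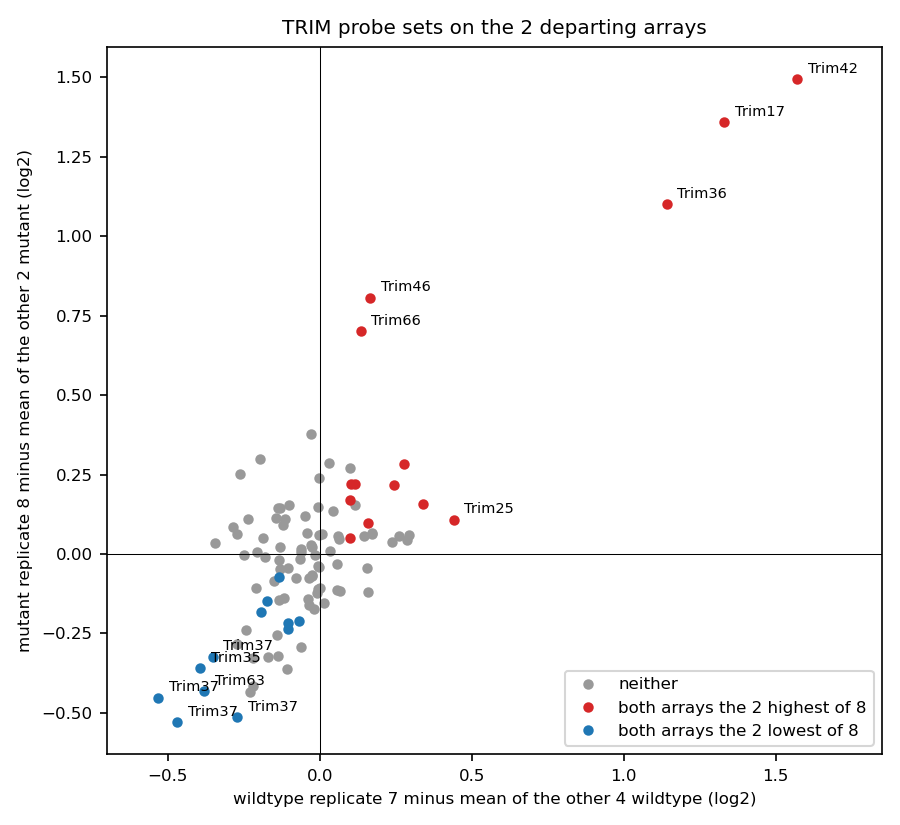
Departure of wildtype replicate 7 from the mean of the other 4 wildtype arrays against that of mutant replicate 8 from the other 2 mutant arrays (log2), for the 105 TRIM probe sets. Trim42, Trim17 and 1 probe set of Trim36 lie above 1 on both axes, the probe sets of Trim37 lie low on both, and Trim46 and Trim66 depart mainly on mutant replicate 8.

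Trim69, Trim60 and Trim61 had small differences, and Trim71, the remaining germ cell gene, is given with the NHL-repeat TRIMs. Trim69, an E3 ligase that is abundant in testis, had 11.31, 11.19, 11.31, 11.23 and 11.43 in the wildtype and 11.21, 11.44 and 11.39 in the mutant, a difference of 0.05 (SE 0.08, 95% interval -0.13 to 0.23). Trim60 differed by 0.09 and 0.02 and Trim61 by -0.09 and 0.08 on 2 probe sets each, with no group parted from the other.

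The chromatin TRIMs, which couple a PHD finger to a bromodomain, had small differences in all 9 probe sets, from -0.06 to 0.10. Trim28 (KAP1), the corepressor that KRAB zinc finger proteins bring to retroelements, had levels of 12.60, 12.53, 12.60, 12.56 and 12.58 in the wildtype and 12.62, 12.50 and 12.63 in the mutant on 1415869_a_at. Its 2 probe sets differed by 0.01 and 0.03 (SE 0.06 each). Trim24, a coregulator of nuclear receptors, had differences of -0.01 to 0.01 over 3 probe sets, and Trim33, which restrains TGF-beta signalling, -0.02 to 0.10 over 3. Over the 9 probe sets of the 4 chromatin genes, with Trim66, the median difference was 0.01. The partners of TRIM28 in silencing, such as HP1 proteins and the HUSH complex, had none of 36 probe sets with an unadjusted limma p under 0.05. The only one without overlap was 1418388_s_at of Mphosph8, a HUSH subunit, lower by 0.10 (SE 0.06).

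The TRIMs with NHL repeats, which bind RNA or motor proteins, showed no group difference past an unadjusted limma p of 0.05 without the block, in 10 probe sets. Trim71 (LIN-41), a stem cell factor needed for early germ cells, had levels of 6.74, 6.78, 6.63, 6.58 and 6.46 in the wildtype and 6.80, 7.13 and 6.64 in the mutant on 1453599_at. The difference was 0.22 (SE 0.12, exact permutation p = 0.143), with mutant replicate 5 the highest. With the pair as a block it was 0.25 and passed the unadjusted threshold of 0.05. Its second probe set differed by 0.09. The 6 probe sets of Trim2 ran from -0.12 to 0.20, in both directions. Trim3 differed by 0.12 (SE 0.10) and Trim32 by 0.01 (SE 0.09).

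Outside these lists, and besides Trim16 as given above, only Trim8, a regulator of cytokine signalling, parted the wildtype and mutant arrays, on 1438679_at. The wildtype levels were 5.10, 5.14, 5.18, 5.19 and 5.02 and the mutant levels 5.26, 5.20 and 5.25. The gap between the groups was small beside the standard error, with a difference of 0.11 (SE 0.06, exact permutation p = 0.0357), and the 2 other probe sets of Trim8 differed by 0.09 and -0.03. The 11 probe sets of the COS-box TRIMs, which bind microtubules, and the 3 of the transmembrane Trim13 and Trim59 had no unadjusted limma p under 0.05 without the block. The 39 genes that met none of the thresholds on p, overlap or span had 75 probe sets with differences of -0.14 to 0.22, and the widest of them spanned 0.77 over the 8 arrays. Among the 28 genes with more than 1 probe set, 16 had differences of both signs.

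The relatives that carry other names, such as Pml and the midline genes, gave 14 probe sets of 8 genes. One had an unadjusted limma p under 0.05: 1438239_at of Mid1, an E3 ligase on microtubules, with levels of 7.13, 6.35, 7.90, 7.70 and 7.88 in the wildtype and 8.77, 8.51 and 7.51 in the mutant. The groups overlapped, with a difference of 0.87 (SE 0.38), and within the pair the mutant was the lower. The 2 other Mid1 probe sets differed by -0.14 and -0.04. Triml1, a relative known from testis and embryo, was highest on wildtype replicate 7 (8.05) and mutant replicate 8 (7.85), with 6.55 to 7.29 on the others.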

How the data were processed

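RNA of 8 testes was measured on Affymetrix Mouse430_2 arrays, 1 array per sample, with groups and replicate numbers from the sample titles. The authors deposited levels on the log2 scale for every array, background-corrected by RMA and quantile-normalised per the study's methods. Quantile normalisation forces like distributions on all arrays, so a shift shared by most transcripts would not be seen. Array medians lay between 6.40 and 6.45, and precision is limited by how few arrays there were. Deposited columns with group means, fold values, p-values and limma output are the authors' own comparisons and were not used. The levels were tested without a filter over all 45101 probe sets (64 of them controls) by limma's moderated test (lmFit, eBayes; limma 3.58.1 under R 4.3.3), with two-sided p-values adjusted after Benjamini and Hochberg, and single probe sets by an exact permutation of the 8 arrays. Python 3.11.15 with numpy 2.4.6, pandas 2.3.3 and matplotlib 3.10.9 did the rest. The fit was run on simulated arrays to check its estimates of known changes. Their noise was independent between arrays, so the effect of the departing pair on the p-values was not tested by it. TRIM names were updated through Entrez IDs with RefSeq genes of GRCm38.p6, which matched all 105 probe sets; Trim12, Trim30 and Trim34 of the table became Trim12a, Trim30a and Trim34a. The build of the array annotation is not given in the sources used here. Named were all TRIM genes with an unadjusted p under 0.05, groups without overlap or a span over 1, and the germ cell, chromatin, NHL-repeat and cluster lists. Members and lists were chosen with earlier results of these data known. A list of general partners of ubiquitin conjugation is not reported here.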

Additional observations from a re-analysis of the deposited data

Results flagged for a closer look

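The highest and lowest level among the 5 wildtype arrays were compared with the nearest other wildtype level for each of the 105 TRIM probe sets. In 7 of them (6.67%) one array stood apart by more than 0.71 of the group's range; chance does this in about 5% of groups, and over all probe sets of the arrays the share was 6.92%. Wildtype replicate 7 was that array in 4 cases. It was high for Trim36 on 1455837_at (11.33, next 10.30), for Trim59 on 1431430_s_at (8.19, next 7.87) and for Trim27 on 1438376_s_at (12.29, next 12.13), and low for Trim36 on 1441969_at (5.52, next 5.76). The 2 Trim36 probe sets thus placed the same array at opposite ends. Wildtype replicate 2 was high for Trim34a on 1424857_a_at (6.28, next 5.49), wildtype replicate 4 for Trim27 on 1415815_at (4.41, next 4.08), and wildtype replicate 6 was low for Trim8 on 1418577_at (6.02, next 6.45).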

How the results depend on the processing

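No TRIM probe set passed an adjusted p of 0.05 under any of the 18 alternatives, which were leaving out each array, 2 treatments of the departing pair, 2 rescalings, 3 other variance models, an offset and 2 filters on probe sets. The count of 7 at an unadjusted p under 0.05 became 11 with the pair as a block, 2 among the 51 TRIM probe sets above the median level, 4 among the 71 without _x_at, _s_at or _a_at IDs, and 3 to 11 when 1 array was left out (3 without mutant replicate 5, 4 without wildtype replicate 6, 11 without mutant replicate 8). The count of 6 without overlap became 17 without both departing arrays, 3 without those IDs, and 6 to 17 when 1 array was left out (10 without mutant replicate 3, 11 without mutant replicate 5, 17 without mutant replicate 8); fewer arrays make separation easier. The median difference stayed between 0.00 and 0.03. Of the 14 named probe sets, 10 kept their direction under every alternative run on them. Those that turned were Trim17 (-0.47 to 0.25 when 1 array was left out), Trim36 (-0.57 to 0.13), Trim46 (-0.41 to 0.10) and Trim42 (-0.49 to 0.33). Trim42 was also -0.19 with the block, -0.17 without both departing arrays and -0.13 with array weights. All these probe sets were highest on replicates 7 and 8, but Trim46 turned only without mutant replicate 3 (0.10). Trim17 turned without wildtype replicate 7 (0.25), mutant replicate 3 (0.24) or mutant replicate 5 (0.18). Trim36 turned without wildtype replicate 7 (0.03) or mutant replicate 3 (0.13). No paired analysis was possible because the labels do not say which samples were littermates.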
